A study of Homo sapiens with 6 samples.

Results

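The 34 genes described here encode the enzymes of glycolysis and well-known products of the cellular response to low oxygen. They were named for their roles, with earlier results of these data known. Their rows in the deposited count table were looked up by symbol, and all 34 were found among its 60461 genes. All 34 also passed the low-count filter, which left 18899 genes to test. The question put to them was whether their RNA levels changed when the RNA editing enzyme ADAR1, in its p110 form, was raised in MDA-MB-231 cells.

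MDA-MB-231 is a long-established line of breast cancer cells of the triple-negative type. Each group held 3 libraries of total RNA. In the ADAR1 p110 group, cells were transduced with an adenovirus that carries the coding sequence of ADAR1 p110, the mainly nuclear form of an enzyme that deaminates adenosines in double-stranded RNA. In the GFP group, cells received an adenovirus coding for enhanced green fluorescent protein, so that every library came from virus-treated cells. The multiplicity of infection was 200, medium was renewed after 16 h and RNA was taken after 48 h in both groups. The labels mention no change of oxygen supply in either group. They call the replicates biological without saying how the cultures were kept apart, so p-values measure only the spread between these libraries, which may be technical.

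Total gene counts ran from 72741235 to 99589278 per library. ADAR itself stood at 1006 ± 13.2 CPM (the count relative to the library total after TMM scaling) in the ADAR1 p110 group and at 267 ± 8.67 CPM in the GFP group (SD, n = 3 each), so the difference has the direction the labels give. VIM, CD44, EGFR, KRT18 and CAV1, markers of this line, each had at least 204 CPM in every library, whereas the hormone receptor genes ESR1 and PGR had at most 0.0827 and 0.0263 CPM. ERBB2, listed as low in this line, had 83.9 to 92.2 CPM. EPCAM and CDH1, on the same list, had 10.1 to 10.9 and 2.70 to 4.33 CPM. Of 5 leukocyte markers, CD3E had 0 counts in all libraries, which allows up to 0.0301 to 0.0412 CPM depending on the library (counting error only), and PTPRC had at most 0.440 CPM. The 5 summed to 1.29 to 1.73 CPM in the ADAR1 p110 libraries and 0.905 to 1.26 CPM in the GFP libraries, most of it LYZ. Summed levels of 5 endothelial markers were 7.54 to 8.07 CPM in the ADAR1 p110 libraries and 10.1 to 11.0 CPM in the GFP libraries. Nearly all of that was KDR, while VWF, CDH5, TEK and CLDN5 had at most 0.335 CPM each. Summed fibroblast markers were 30.1 to 33.4 against 31.2 to 33.9 CPM. Nearly all of that was COL1A2 (14.3 to 18.1 CPM), COL1A1 (9.71 to 14.2 CPM) and LUM (2.72 to 3.64 CPM). PDGFRA and DCN had at most 0.183 and 0.0507 CPM. The part of other cells in the results below was not tested. ADAR1 p110 replicate 1 and GFP replicate 2 lay at 26.2 and 24.1 on the second principal component (21.8% of the variance), and the other 4 libraries between -18.2 and -7.49. Calls among the 34 genes that change without these 2 libraries are given both ways. Most single estimates are given from all libraries only, and some of these also move.

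Cells respond to low oxygen mainly through the hypoxia-inducible factors, or HIF. The alpha subunit of HIF is hydroxylated by EGLN enzymes when oxygen is present, then bound by the VHL protein and degraded. When oxygen falls, it accumulates, pairs with ARNT and binds a short DNA core in its target genes. Those targets include glucose transporters, almost every glycolytic enzyme, kinases that steer pyruvate away from mitochondria, and secreted factors such as VEGFA. Many cancer cell lines run glycolysis at a high rate with oxygen present, and several of these genes are then expressed without hypoxia.

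Most of the hypoxia and glycolysis genes showed no called difference between the groups. SLC2A1, the main glucose transporter, and ANKRD37, a small ankyrin-repeat protein induced by hypoxia, rose in the ADAR1 p110 libraries. P4HA2, a catalytic subunit of collagen prolyl hydroxylase, fell. The other 31 genes did not pass the test (quasi-likelihood test of edgeR, with p adjusted over all tested genes by Benjamini-Hochberg and a threshold of 0.05). The 3 calls make 8.82% of the 34, against 4.91% of all tested genes, with 1.95% of all tested genes called higher and 2.96% called lower. In bulk RNA, fewer cells with a transcript and less of it per cell cannot be told apart. The median log2 fold change of the 34 genes was 0.02, that of all tested genes 0.005, and 19 of the 34 lay above 0 and 15 below.

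The size of these differences was bounded well. The 95% interval of the fold change, for single genes and without adjustment, lay within 1.5-fold in either direction for each of the 34 in the fit of all 6 libraries. Of all tested genes, 64.8% had an interval that narrow, but these were not matched to the 34 for expression level. They include low genes such as PGAM4, with a mean of 0.247 CPM in the GFP group. The lowest of the 34 in that group was ANKRD37, with a mean of 6.47 CPM. The groups did not overlap in CPM for 7 of the 34, or 20.6%, against 24.0% of all tested genes. Those 7 were SLC2A1, ANKRD37, P4HA2, ALDOA, BNIP3, HK1 and EGLN3.

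**Figure D1:**
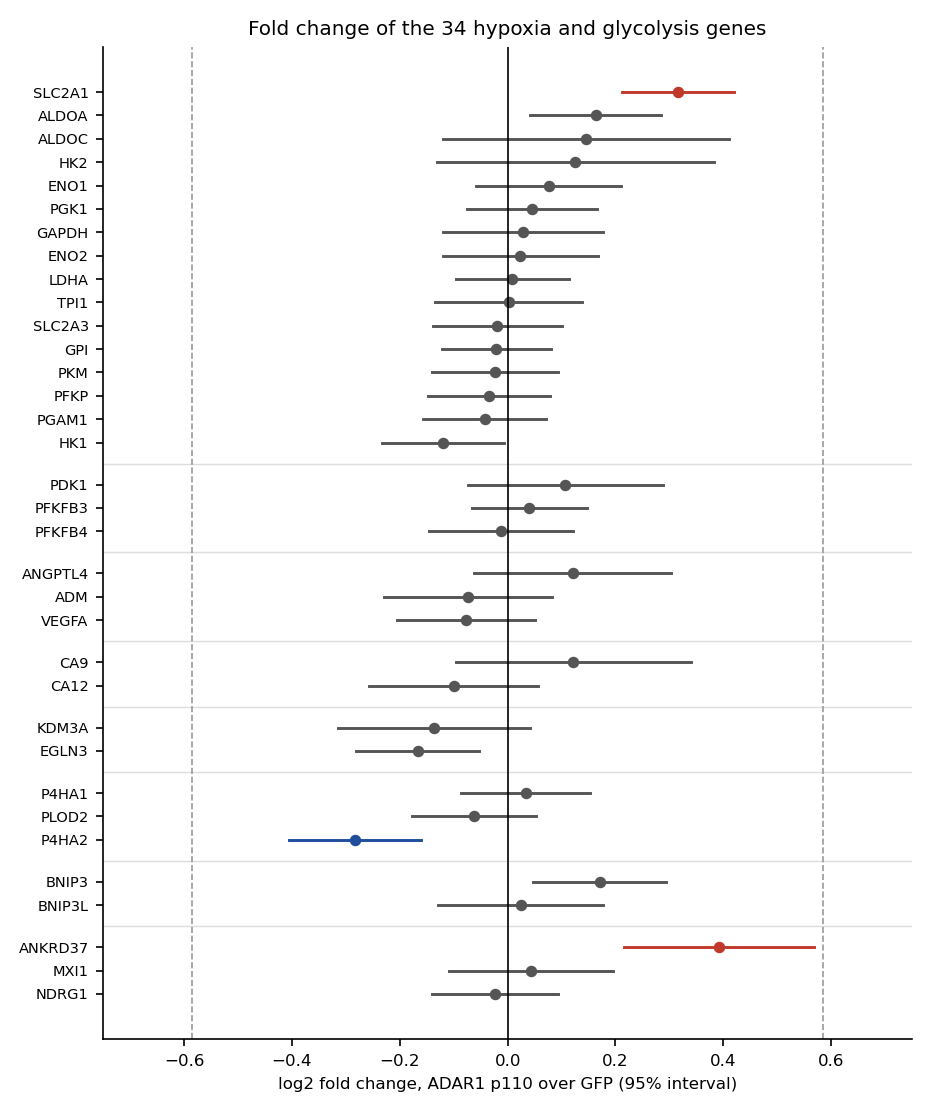
Horizontal axis: log2 ratio of the ADAR1 p110 to the GFP level for the 34 genes, grouped by role, with the 95% interval as a bar and dashed lines at a 1.5-fold change. SLC2A1 and ANKRD37 (red) passed the test as higher and P4HA2 (blue) as lower, and no interval reached the dashed lines.

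SLC2A1 (ENSG00000117394.20_2, hg19 chromosome 1, 43391046 to 43424844, minus strand) had 498, 519 and 520 CPM in ADAR1 p110 replicates 1, 2 and 3, and 415, 402 and 418 CPM in the GFP replicates. Every ADAR1 p110 library thus lay above every GFP library, with a gap far wider than the spread inside either group. The log2 fold change was 0.32 (SE 0.047, adjusted p = 0.00315), a 1.25-fold higher level with a 95% interval of 1.16-fold to 1.34-fold. The call was kept in all 13 alternative analyses, where adjusted p ran from 2.97e-06 to 0.0389 and the log2 fold change from 0.30 to 0.34. No other gene with at least 5% of its counts overlaps the SLC2A1 locus in the deposited table.

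ANKRD37 (ENSG00000186352.8_2, hg19 chromosome 4, 186317175 to 186321782, plus strand) was a low gene, with 8.25, 8.18 and 9.04 CPM in the ADAR1 p110 replicates and 6.30, 6.44 and 6.66 CPM in the GFP replicates. The groups did not overlap, and ADAR1 p110 replicate 3 was the highest library. The log2 fold change was 0.39 (SE 0.080, adjusted p = 0.0181). Without ADAR1 p110 replicate 3, GFP replicate 1 or GFP replicate 3 the adjusted p was 0.0919, 0.0868 and 0.0588, so the call rests on each of these libraries. UFSP2, a gene on the opposite strand that overlaps ANKRD37, held 394% as many counts and had 29.1 ± 1.91 against 29.6 ± 0.191 CPM, with a log2 fold change of -0.02. Whether counting used strand is not given in the sources used here, so reads at this locus may not have been parted cleanly.

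P4HA2 (ENSG00000072682.18_3, hg19 chromosome 5, 131527531 to 131631008, minus strand) had 139, 149 and 151 CPM in the ADAR1 p110 replicates and 188, 175 and 172 CPM in the GFP replicates. Its highest ADAR1 p110 library was below its lowest GFP library. The log2 fold change was -0.28 (SE 0.055, adjusted p = 0.0146), which is 1.22-fold lower. The adjusted p was 0.0590 without ADAR1 p110 replicate 2 and 0.0887 without GFP replicate 1. Both genes that overlap its span on the other strand were lower as well. PDLIM4, with 36.4% as many counts, had a log2 fold change of -0.24 (adjusted p = 0.0533), and SLC22A4, with 10.0%, had -0.35 (adjusted p = 0.0101). Their part in the P4HA2 result was not tested.

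**Figure D2:**
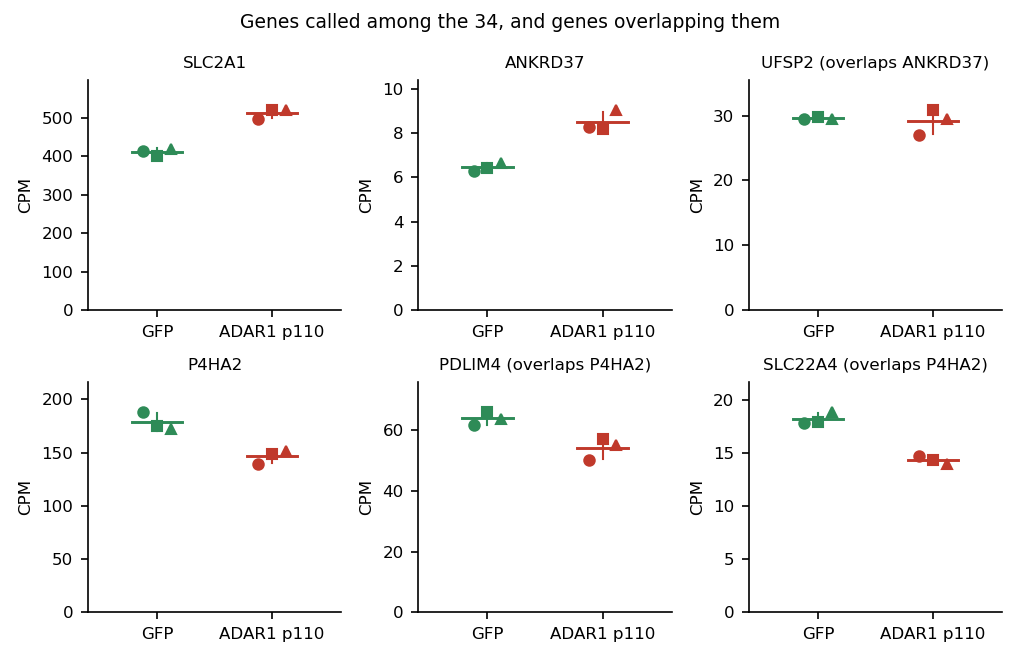
CPM of SLC2A1, ANKRD37 and P4HA2 and of 3 genes that overlap the last 2 in each library (circle, square and triangle for replicates 1, 2 and 3), where a bar marks the mean of each group and a line its SD (n = 3). SLC2A1 lies between 402 and 418 CPM in GFP and between 498 and 520 CPM in ADAR1 p110, UFSP2 overlaps between the groups, and P4HA2, PDLIM4 and SLC22A4 are all lower in ADAR1 p110.

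The sequences upstream of these 3 genes are shown because HIF binds a 5-base core, ACGTG or GCGTG, and the called genes differ in whether they carry it near the start site. RefSeq promoters (GRCh38.p14, 250 bases before to 50 after each start) were matched for 30 of the 34 genes by symbol, and those of BNIP3L, NDRG1, SLC2A3 and VEGFA were not matched. Each line below gives the 250 bases up to the start site, 5′ to 3′ on the strand of the gene, with any core on either strand in capitals. The stretches are chr1:42958869-42959118 on the minus strand, chr4:185396591-185396840 on the plus strand and chr5:132227092-132227341 on the minus strand.
SLC2A1: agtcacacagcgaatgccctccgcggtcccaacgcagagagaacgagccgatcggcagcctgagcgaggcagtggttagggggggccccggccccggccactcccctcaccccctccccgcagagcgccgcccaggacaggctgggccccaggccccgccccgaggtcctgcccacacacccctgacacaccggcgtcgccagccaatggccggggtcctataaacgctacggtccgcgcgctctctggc
ANKRD37: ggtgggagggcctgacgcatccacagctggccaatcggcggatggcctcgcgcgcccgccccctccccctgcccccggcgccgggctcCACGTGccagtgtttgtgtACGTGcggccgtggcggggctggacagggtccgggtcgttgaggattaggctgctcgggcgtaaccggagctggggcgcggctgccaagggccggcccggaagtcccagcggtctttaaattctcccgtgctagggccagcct
P4HA2: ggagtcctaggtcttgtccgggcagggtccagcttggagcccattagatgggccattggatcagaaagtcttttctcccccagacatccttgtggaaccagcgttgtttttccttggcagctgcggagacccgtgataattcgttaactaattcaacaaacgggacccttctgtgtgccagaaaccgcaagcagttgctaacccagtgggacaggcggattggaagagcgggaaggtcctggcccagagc

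The ANKRD37 promoter held 3 cores in this stretch, of which a pair overlaps, because CACGTG reads as ACGTG on both strands. SLC2A1 had none upstream of its start and 1 GCGTG at position 26 after it, counting the start site as 1. P4HA2 had none in the whole window. A match describes letters only, and the lack of one says nothing of elements outside the window.

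Cores also lay upstream of genes that did not pass the test. The next stretches are those of LDHA, PGK1, CA9 and BNIP3, 4 widely used markers of the hypoxia response, cut to 10 bases on either side of their upstream cores. They lie at chr11:18394368-18394504 (plus strand, the first of 2 LDHA promoters in the table), chrX:78104027-78104079 (plus), chr9:35673900-35673924 (plus) and chr10:131982013-131982076 (minus).
LDHA: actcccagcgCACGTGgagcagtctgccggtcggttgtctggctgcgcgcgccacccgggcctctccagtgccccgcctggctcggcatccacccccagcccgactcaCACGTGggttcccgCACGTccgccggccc
PGK1: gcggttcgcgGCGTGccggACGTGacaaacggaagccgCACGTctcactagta
CA9: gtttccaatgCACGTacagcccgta
BNIP3: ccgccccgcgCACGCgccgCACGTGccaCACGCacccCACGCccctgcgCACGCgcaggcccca

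In LDHA the stretch held 5 matches, in PGK1 3, in CA9 1 and in BNIP3 6, counting both strands. Across the 30 matched genes, 19 (63.3%) had ACGTG and 27 (90.0%) had either core in at least 1 promoter. Among all 27305 genes of the RefSeq table the shares were 24.9% and 52.4%. A gene with several promoters has more room for a match. Counted per promoter, ACGTG was in 44.9% of the 49 promoters of these genes against 21.4% of all 35116. Either core was in 73.5% against 48.4%. EGLN3, P4HA2 and PGAM1 were the 3 without either core. Most of the 34 are long known as HIF targets, so these shares describe the list and are no result of the experiment.

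Glycolysis splits glucose into pyruvate in a fixed order of steps, and 16 of the 34 genes encode its transporters and enzymes. Only SLC2A1 passed the test among these 16, and their log2 fold changes ran from -0.12 to 0.32 with a median of 0.02. Together they took 1.69% ± 0.0729 of all counts in the ADAR1 p110 group and 1.62% ± 0.0467 in the GFP group. The groups overlapped in that share, and ADAR1 p110 replicate 1 and GFP replicate 2 had the lowest value of their group.

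Levels were compared between genes as CPM per kilobase of deposited gene length. In the GFP group GAPDH, which oxidises glyceraldehyde phosphate, was highest at 1341 ± 72.0 CPM per kilobase. ENO1 followed at 753 ± 33.6, then TPI1 at 393 ± 16.8, PKM at 322 ± 10.9, LDHA at 288 ± 3.01 and PGK1 at 228 ± 6.19 CPM per kilobase (SD, n = 3). PGAM1 at 105 ± 4.01 and PFKP at 105 ± 3.61 did not differ beyond their spread. Of the genes of earlier steps, SLC2A1 had 87.2 ± 1.86, ALDOA 77.5 ± 4.67, HK1 54.4 ± 0.872 and GPI 37.0 ± 0.858 CPM per kilobase. ENO2, the second enolase gene, had 15.4 ± 1.14 CPM per kilobase. The lowest of the 16 were HK2 at 4.89 ± 0.528 and ALDOC at 2.85 ± 0.409. Gene length in the table sets this scale, and the length of the expressed transcripts was not measured.

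**Figure D3:**
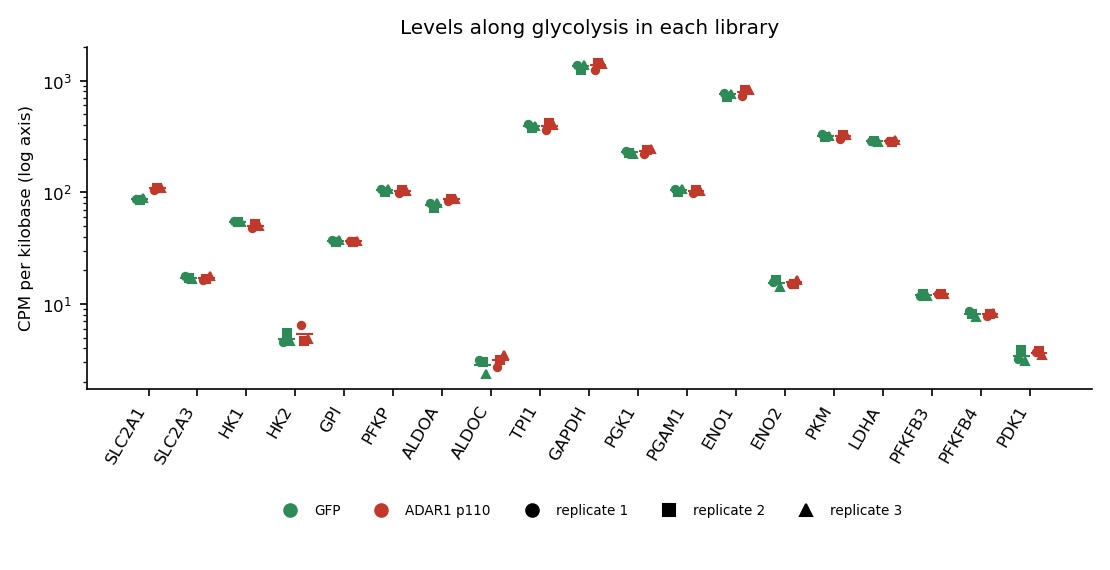
CPM per kilobase (log axis) of the 16 glycolysis genes in pathway order, and of the regulators PFKFB3, PFKFB4 and PDK1, in each library, with GFP in green, ADAR1 p110 in red, replicates by symbol and the group mean as a bar. Levels spread from 2.85 CPM per kilobase for ALDOC to 1341 for GAPDH in the GFP group, and SLC2A1 is the gene shown whose groups differed by the test.

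None of the abundant enzymes of the lower pathway passed the test. GAPDH, often used as a reference gene, had 3706, 4331 and 4197 CPM in the ADAR1 p110 replicates and 4132, 3751 and 4114 CPM in the GFP replicates. The lowest library of each group was again the one set apart on the second component. Its log2 fold change was 0.03 (SE 0.068, adjusted p = 0.883), with a 95% interval from 0.920-fold to 1.13-fold. LDHA, which turns pyruvate into lactate, was the steadiest of the 34 in the GFP group, with a coefficient of variation of 1.04%, and had 1797 ± 49.9 against 1787 ± 18.7 CPM. TPI1, which interconverts the triose phosphates, had 1061 ± 75.8 against 1060 ± 45.3 CPM and the smallest difference of the 34, a log2 fold change of 0.002 (adjusted p = 0.991). It had 976, 1122 and 1086 CPM in the ADAR1 p110 replicates and 1102, 1012 and 1066 CPM in the GFP replicates, so the groups overlapped fully.

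PKM, the last ATP-forming step, had 2718 ± 115 against 2763 ± 93.2 CPM, and gene counts do not part its splice forms. PGK1, the first ATP-forming step, had 1272 ± 69.4 against 1233 ± 33.5 CPM. ENO1, enolase, had 3141 ± 207 against 2979 ± 133 CPM, and PGAM1, phosphoglycerate mutase, 262 ± 9.56 against 270 ± 10.3 CPM. In each of these the groups overlapped. GAPDH, TPI1 and ENO2 lie close together on hg19 chromosome 12, between 6643093 and 7032861, and their log2 fold changes were 0.03, 0.00 and 0.02. A count of 140 pseudogenes named after 12 of the 34 genes, 62 of them GAPDH copies, drew at most 0.980% as many counts as their parent, and how reads with several alignments were treated is not given in the sources used here.

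ALDOA and HK1 came nearest to a call within glycolysis. ALDOA, the main aldolase, had 520, 540 and 541 CPM in the ADAR1 p110 replicates and 493, 443 and 494 CPM in the GFP replicates, without overlap. Its log2 fold change was 0.16 (SE 0.055, adjusted p = 0.136). HK1, the hexokinase that traps glucose in most tissues, had 289, 317 and 305 CPM against 336, 328 and 327 CPM, also without overlap, with a log2 fold change of -0.12 (SE 0.051, adjusted p = 0.237). HK2, the inducible hexokinase, had 39.1 CPM in ADAR1 p110 replicate 1 and 28.5 and 29.6 CPM in replicates 2 and 3, against 27.5, 33.4 and 28.2 CPM. One library therefore set its mean, and its log2 fold change of 0.13 became -0.03 without that library.

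PFKP, the platelet-type phosphofructokinase, had 495 ± 19.0 against 507 ± 17.4 CPM. GPI, which isomerises glucose phosphate, had 333 ± 1.91 against 338 ± 7.81 CPM. SLC2A3, a neuronal-type glucose transporter, had 105 ± 4.94 against 106 ± 3.60 CPM, and ENO2, the neuronal enolase, 66.8 ± 3.13 against 65.7 ± 4.90 CPM. ALDOC, the brain-type aldolase, had 8.06, 9.27 and 10.3 CPM in the ADAR1 p110 replicates and 9.17, 8.86 and 6.96 CPM in the GFP replicates. In each of these 5 the groups overlapped. The gene AC005726.2 shares part of the ALDOC span on the same strand, with 17.6% as many counts and a log2 fold change of -0.32 (adjusted p = 0.344).

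The balance between related genes was described as shares, without a test. Shares of 3 of 8 pairs did not overlap between the groups. The 24.0% of all tested genes without overlap in CPM is for single genes, and no such share was computed for other pairs. The pairs with SLC2A1 and P4HA2 each hold a called gene, so their shares are not independent of those calls. Per length, SLC2A3 made up 13.5%, 13.2% and 14.0% of the SLC2A1 and SLC2A3 total in the ADAR1 p110 replicates, and 16.9%, 16.7% and 15.9% in the GFP replicates. These shares did not overlap. HK2 made up 12.0%, 8.24% and 8.84% of the HK1 and HK2 total against 7.57%, 9.26% and 7.95%, so that ADAR1 p110 replicate 1 stood alone. ALDOC made up 3.49% ± 0.342 of the ALDOA and ALDOC total against 3.56% ± 0.604, and ENO2 made up 1.81% to 2.03% of the ENO1 and ENO2 total against 1.80% to 2.24%, both with overlap. PFKFB4 made up 38.7%, 39.8% and 40.0% of the PFKFB3 and PFKFB4 total against 42.1%, 40.0% and 39.0%, and CA9 made up 48.3% ± 2.84 of the CA9 and CA12 total against 44.5% ± 1.39, again with overlap. BNIP3L, which like BNIP3 was not called, made up 24.3% ± 0.310 of the BNIP3 and BNIP3L total against 26.2% ± 0.726, without overlap. P4HA2 made up 22.6% ± 0.628 of the P4HA1 and P4HA2 total against 26.7% ± 0.771, without overlap (SD, n = 3 each, no test).

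Enzymes that regulate the pathway did not pass the test. PFKFB3 and PFKFB4 make the sugar phosphate that activates phosphofructokinase, and had 75.4 ± 0.676 against 73.3 ± 1.62 CPM and 49.2 ± 1.47 against 49.6 ± 3.14 CPM. UCN2 overlaps PFKFB4 on the same strand with 30.1% as many counts and fell, with 11.2, 11.1 and 10.9 CPM against 18.7, 19.8 and 17.5 CPM (log2 fold change -0.76, adjusted p = 0.000109). PDK1, the kinase that switches off pyruvate dehydrogenase, had 55.0, 56.6 and 51.9 CPM in the ADAR1 p110 replicates and 47.7, 57.8 and 46.3 CPM in the GFP replicates. GFP replicate 2 was its highest library, and the log2 fold change was 0.11 (SE 0.082, adjusted p = 0.548).

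Secreted factors of the hypoxia response showed no call. VEGFA, which drives the growth of blood vessels, had 240, 265 and 268 CPM in the ADAR1 p110 replicates and 281, 276 and 258 CPM in the GFP replicates, with overlapping groups. Its log2 fold change was -0.08 (SE 0.058, adjusted p = 0.544), with a 95% interval from 0.868-fold to 1.04-fold. ADM, the vasodilator adrenomedullin, had 41.9 ± 3.97 against 44.1 ± 1.24 CPM. ANGPTL4, an inhibitor of lipoprotein lipase, had 7.54, 7.69 and 7.76 CPM against 6.86, 6.64 and 7.62 CPM, where GFP replicate 3 reached into the ADAR1 p110 range.

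The carbonic anhydrases CA9 and CA12, which control pH at the cell surface, lay on opposite sides of 0. CA9, one of the most specific reporters of HIF activity in tumours, had 8.54, 9.74 and 10.3 CPM in the ADAR1 p110 replicates and 9.72, 8.62 and 7.99 CPM in the GFP replicates. Its log2 fold change was 0.12 (SE 0.099, adjusted p = 0.575), and the 95% interval ran from 0.935-fold to 1.27-fold. ARHGEF39, on the other strand, overlaps it and had 54.9% of its count. CA12 had 44.6 ± 4.06 against 47.8 ± 2.08 CPM.

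EGLN3, the HIF prolyl hydroxylase that hypoxia induces most, had 37.8, 37.8 and 39.2 CPM in the ADAR1 p110 replicates and 43.3, 43.3 and 42.2 CPM in the GFP replicates. The groups were apart by more than their spread, but with a log2 fold change of -0.17 (SE 0.052) the adjusted p was 0.104. SPTSSA overlaps EGLN3 on the same strand, with 50.6% as many counts and 29.7 CPM in ADAR1 p110 replicate 1 beside 17.2 to 21.3 CPM in the other libraries. KDM3A, a histone demethylase that also uses oxygen, had 75.7, 68.9 and 71.1 CPM against 75.1, 90.1 and 72.0 CPM, where GFP replicate 2 stood high. Its log2 fold change was -0.14 (SE 0.081, adjusted p = 0.415).

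Beside P4HA2, the collagen-modifying enzymes P4HA1 and PLOD2 did not pass. P4HA1, the other common catalytic subunit of collagen prolyl hydroxylase, had 183 ± 5.47 against 178 ± 9.27 CPM, and PLOD2, a lysyl hydroxylase of collagen, had 133 ± 6.15 against 138 ± 2.59 CPM. A direct test of P4HA2 against P4HA1 was not made.

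BNIP3 and BNIP3L are receptors that mark mitochondria for removal. BNIP3 had 254, 233 and 247 CPM in the ADAR1 p110 replicates and 226, 221 and 205 CPM in the GFP replicates, without overlap, and a log2 fold change of 0.17 (SE 0.056, adjusted p = 0.123). BNIP3L had 63.5 ± 3.71 against 62.5 ± 4.93 CPM, and PNMA2, which overlaps it on the other strand, had 83.7% of its count. NDRG1, a stress-response gene strongly induced by hypoxia, had 180 ± 2.36 against 183 ± 9.93 CPM. MXI1, an antagonist of MYC, had 20.3 ± 1.38 against 19.7 ± 0.672 CPM.

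**Figure D4:**
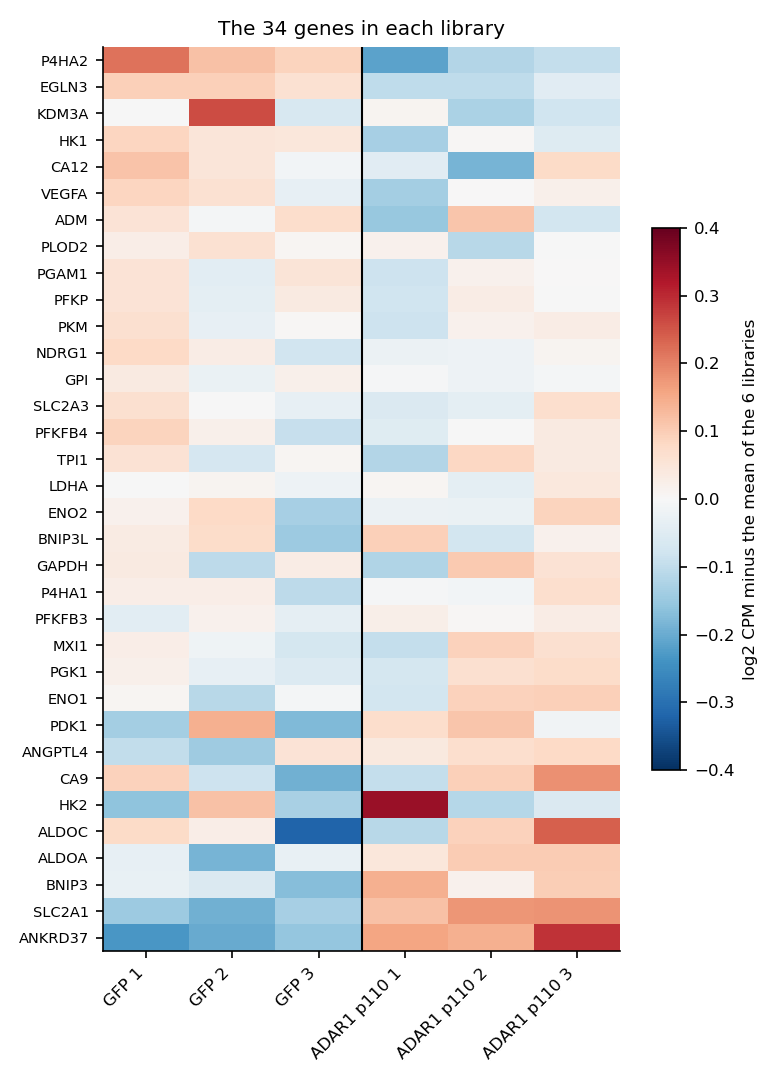
Log2 CPM of each of the 34 genes minus its mean over the 6 libraries (colour, from -0.4 to 0.4), with genes ordered by log2 fold change and libraries in columns, GFP left of the line and ADAR1 p110 right of it. SLC2A1 and ANKRD37 are blue in all GFP and red in all ADAR1 p110 libraries and P4HA2 the reverse, while HK2 stands out in ADAR1 p110 replicate 1, KDM3A in GFP replicate 2 and ALDOC in GFP replicate 3.

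Among the 34 genes the coefficient of variation inside a group ran from 0.575% (GPI) to 18.1% (HK2) in the ADAR1 p110 libraries and from 1.04% (LDHA) to 14.4% (ALDOC) in the GFP libraries. Without ADAR1 p110 replicate 1 and GFP replicate 2, in a fit of 2 against 2 libraries, 7 of the 34 were called, against 13.4% of all tested genes in that fit. ENO1 (log2 fold change 0.10, adjusted p = 0.0391), ALDOA (0.14, 0.0172), PDK1 (0.21, 0.0130) and BNIP3 (0.16, 0.0328) then joined SLC2A1 and ANKRD37 as higher, and P4HA2 stayed lower. The estimates of ENO1, ALDOA and BNIP3 differed from those of all 6 libraries by at most 0.03, while that of PDK1 was 0.11 with all 6.

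The rest of the pathway was read from 7 lists of 119 genes, picked for their role. Of the 107 that could be tested, 4 rose and 8 fell, with a median log2 fold change of -0.03. The 12 calls make 11.2% of those tested, beside the 4.91% of all tested genes given above. The number was 23 without ADAR1 p110 replicate 1, 6 without ADAR1 p110 replicate 3 and 26 without both libraries set apart on the second component. Calls among all tested genes moved in the same direction, from 927 in the main fit to 1812, 446 and 2605 in these fits. The last is 13.4% of the genes tested there.

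Of 17 tested HIF subunits and regulators, CITED2 rose and VHL fell. CITED2, a target of HIF that competes with it for the coactivators EP300 and CREBBP, had 148 ± 1.72 against 113 ± 4.01 CPM (log2 fold change 0.39, SE 0.049, adjusted p = 0.00106). VHL, the ubiquitin ligase subunit that recognises hydroxylated HIF, had 66.8, 63.9 and 66.3 CPM in the ADAR1 p110 replicates and 75.3, 80.9 and 75.8 CPM in the GFP replicates (log2 fold change -0.24, SE 0.053, adjusted p = 0.0279). The VHL call was lost in 7 of 13 alternatives, with adjusted p up to 0.139, among them the removal of any library other than ADAR1 p110 replicate 1. HIF1A, the main alpha subunit, had 586 ± 23.0 against 606 ± 1.32 CPM (log2 fold change -0.05, adjusted p = 0.667), and ARNT, its partner, 42.6 ± 1.10 against 44.5 ± 0.192 CPM. EPAS1, the HIF-2 alpha subunit, had 70.5, 64.0 and 64.6 CPM against 76.9, 78.7 and 75.3 CPM, with a log2 fold change of -0.21 and an adjusted p of 0.0550, which was under 0.05 in 5 of 13 alternatives. HIF is controlled largely as a protein, which these counts do not measure.

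Among 13 tested further glycolytic isozymes and related enzymes, HKDC1 and BPGM fell. HKDC1, a hexokinase-like gene that neighbours HK1, had 22.8, 26.8 and 25.3 CPM in the ADAR1 p110 replicates and 35.3, 35.8 and 36.5 CPM in the GFP replicates (log2 fold change -0.52, SE 0.067, adjusted p = 0.00122), and kept its call in all 13 alternatives. BPGM, bisphosphoglycerate mutase, had 18.7 ± 0.644 against 22.7 ± 0.956 CPM (log2 fold change -0.27, adjusted p = 0.0308). It lost its call without ADAR1 p110 replicate 2 or 3 or GFP replicate 1 or 3, and with a term for replicate number in the fit. Of 13 transport genes, SLC2A6, a lysosomal member of the glucose transporter family, fell from 44.2 ± 0.316 to 34.6 ± 0.615 CPM (log2 fold change -0.36, adjusted p = 0.00253). TXNIP, which restrains glucose uptake and is itself induced by glucose, rose from 91.4 ± 3.39 to 113 ± 7.57 CPM (log2 fold change 0.31, adjusted p = 0.0140). The TXNIP call was lost without replicate 3 of either group, and with the replicate term.

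No gene of 14 for pyruvate dehydrogenase and pyruvate entry and none of 10 for glycogen was called by edgeR, with 1 gene at an unadjusted p under 0.05 in each list, beside 3523 of all 18899 tested genes.

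Of 37 further HIF targets, 2 rose and 4 fell. CITED2, counted above, and DDIT4, an inhibitor of mTOR signalling induced by hypoxia and other stresses, rose, the latter from 264 ± 10.1 to 329 ± 9.54 CPM (log2 fold change 0.32, adjusted p = 0.00461). STC1, a secreted glycoprotein, fell from 171 ± 2.61 to 129 ± 5.58 CPM (log2 fold change -0.41, adjusted p = 0.000950). TFRC, the transferrin receptor, and BHLHE41, a circadian repressor, also fell, by 0.27 and 0.54 on the log2 scale. These last 2 lie outside the naming rule and were picked after their values were seen. Neither passed once ADAR1 p110 replicate 3 was removed (adjusted p = 0.0536 and 0.0565), and BHLHE41 also depended on ADAR1 p110 replicate 2 and on GFP replicate 1. TFRC also lost its call with the replicate term. SSPN overlaps BHLHE41 on the other strand and had 68.8% of its count. The called targets thus lay on both sides of 0.

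**Figure D5:**
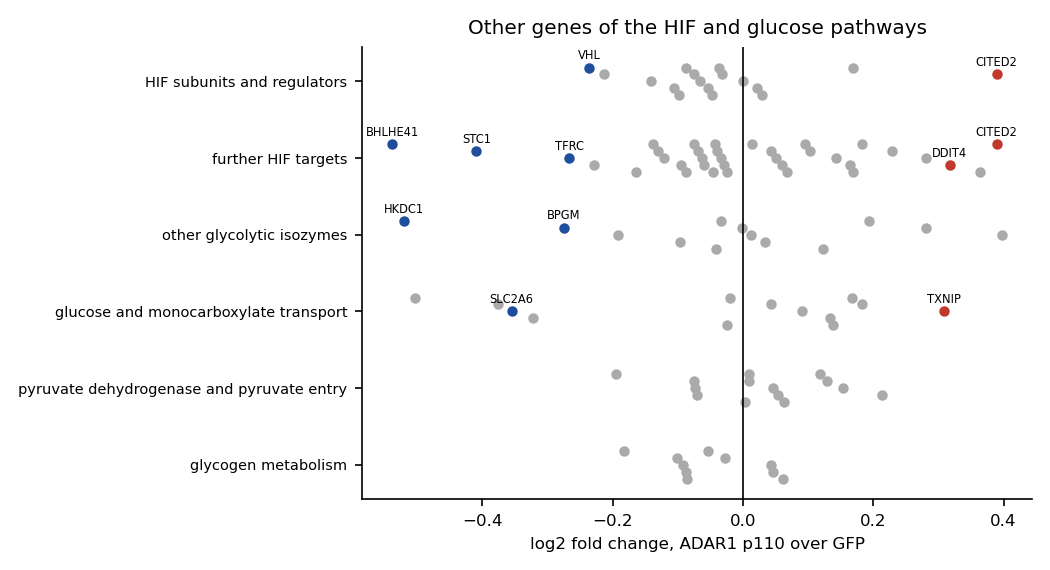
Horizontal axis: log2 ratio of the ADAR1 p110 to the GFP level for tested genes of 6 of the 7 lists around the HIF and glucose pathways, with called genes named, red for higher and blue for lower, and grey for the rest; vertical offsets within a list only part the points, and 1 called gene is not drawn. HKDC1 at -0.52 and STC1 at -0.41 are among the falls drawn, and CITED2, in 2 lists, leads the called rises at 0.39.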

How the data were processed

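Libraries of total RNA were made with a stranded kit, per the labels' protocols. The submitters' processing notes list STAR 2.5.2a, featureCounts 1.5.1, DESeq2 1.4.5, R 3.1 and the build hg19. The series' design text adds that STAR did the alignment and QuickRNASeq the counting. The authors' deposited values are raw counts per gene for 60461 genes, with gene length in bases per the file headers. How strand and multiple alignments were handled is not given in the sources used here.

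Genes were kept by filterByExpr (minimum count 10), given TMM factors and put through edgeR 4.0.16 (quasi-likelihood test, R 4.3.3) with no term but group, adjusted over 18899 genes and called at 0.05. The biological coefficient of variation was 8.00%. The SE is the log2 fold change divided by the square root of F, and 95% intervals use the test's degrees of freedom. Depth was 72741235 to 99589278 counts. No molecular identifiers are mentioned, so the floor of 3 counts for a count of 0 covers counting error only. Replicates differed by 7.94 to 35.4 chi-square per degree of freedom, more than counting noise, so none was counted as the same library deposited again.

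Groups and replicates come from the titles. All members are named. By rule, those called, the most abundant and those with the largest and smallest fold changes have values in each library. Other members with such values were picked after seeing them. Of 7 further lists, called genes are named, at most 4 per list, with HIF1A, EPAS1, ARNT and VHL. Some called genes of these lists are counted but not reported here by name. Members and lists were chosen with earlier results of these data known. Alternatives were DESeq2 size factors, library size alone, no filter, DESeq2 1.42.0, limma-voom (limma 3.58.1), a replicate block, and leaving out libraries. The test was checked on simulated counts.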

Additional observations from a re-analysis of the deposited data

How the results depend on the processing

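Of the 34 genes, 22 kept the sign of their log2 fold change in all 13 alternatives, and the 12 that did not were at most 0.13 from 0 in the main analysis, none of them called there. SLC2A1, ANKRD37 and P4HA2 were called under both other scalings, without a low-count filter, with the DESeq2 Wald test and with limma-voom. The median log2 fold change of the 34 genes moved by less than the spread between replicates in every alternative. That median still changed sign, from 0.0161 to -0.0093 without ADAR1 p110 replicate 3 and to -0.0096 without GFP replicate 3. Leaving out 1 library gave 1 to 3 called genes of the 34, 6 to 23 of the further genes and 396 to 1812 of all genes, 100 to 795 higher and 296 to 1017 lower. Without the 2 libraries apart the counts were 7, 26 and 2605 (1181 higher, 1424 lower). No low-count filter gave 1553 genes, 742 of them higher, and the DESeq2 Wald test 591 higher. The cause of these shifts was not tested. Scaling by library size alone, 510 genes were higher and 479 lower, against 368 and 559.

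Same-numbered libraries of the 2 groups did not deviate together (correlations -0.11, -0.03 and 0.04 over 18899 genes). Because deviations were taken from means of 3 libraries, this cannot show whether the cultures were prepared in pairs. With the replicate block, 1 of the 34 genes (SLC2A1), 7 of the further genes and 508 of all genes were called, 175 higher and 333 lower. The adjusted p of ANKRD37 and P4HA2 was then 0.0561 and 0.0833.

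Changes of sign were small. With library size alone SLC2A3 stood at 0.0046, GPI at 0.0029, PKM at 0.0001, PFKFB4 at 0.0119 and NDRG1 at 0.0005 on the log2 scale, and without the 2 libraries apart SLC2A3 stood at 0.0015 and PFKFB4 at 0.0192. Leaving out 1 library gave -0.0558 to 0.0109 for SLC2A3, -0.0312 to 0.221 for HK2, -0.0359 to 0.059 for TPI1, -0.0135 to 0.0927 for GAPDH, -0.0318 to 0.0746 for ENO2, -0.0414 to 0.0111 for PKM, -0.0074 to 0.0332 for LDHA, -0.0568 to 0.0346 for PFKFB4, -0.0061 to 0.0595 for P4HA1, -0.0367 to 0.0719 for BNIP3L and -0.0626 to 0.0143 for NDRG1. The smallest called change of the 34 was 1.22-fold, which is no detection limit, since changes of that size and above can be missed with 3 libraries a group.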
